A study of Mus musculus with 3 samples.

Results

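Transcripts of 30 genes that carry, transmit or restrain the Toll-like receptor (TLR) signal inside the cell were followed in 3 libraries of macrophages treated with lipopolysaccharide (LPS). The genes were taken by mouse symbol from a fixed list, and all 30 were found among the 54331 features of the deposited table and had a mean value above the limit of 10 used for testing. They were grouped by role into 6 genes of the MyD88 arm, 5 of the TRIF arm, 7 IKK and TAK1 kinases and their subunits, 10 feedback inhibitors, and the pair Traf1 and Birc3. The cells were RAW 264.7, a mouse macrophage line of male BALB/c origin, and every library received LPS, the lipopolysaccharide of bacterial outer membranes that TLR4 senses, at 100 ng/mL for 5 h. One group was a single library with a control shRNA, whose genotype is labelled wild-type. The other group was 2 libraries labelled GIV-depleted, each with a different shRNA against GIV (Girdin, encoded by Ccdc88a), a scaffold protein that modulates G proteins. The sources used here do not give whether the shRNA cells were pools or clones, and no library without LPS was analysed here, so induction by LPS cannot be read from these values.

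TLR4 signals through 2 pairs of adaptors. TIRAP and MyD88 act at the plasma membrane, where MyD88 gathers the IRAK kinases and TRAF6, and TRAM (Ticam2) and TRIF (Ticam1) act from endosomes, where TRAF3, TBK1 and IKK-epsilon lead to interferon genes. Both arms reach the TAK1 and IKK kinases that release NF-kB, and NF-kB in turn drives genes for inhibitors such as A20 (Tnfaip3) that end the signal. In macrophages this feedback, together with proteins that destroy inflammatory mRNAs, sets how long cytokines are made.

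Library totals ranged from 47349097 to 49756670 normalized counts, or roughly 44700000 to 52700000 reads, so that 1 read is worth about 1 unit. The targeted gene Ccdc88a had 2580, 1734 and 2561 normalized counts, in the order control, library labelled shRNA 1, library labelled shRNA 2, which is the order of all triplets below. Its mean difference was -0.29 (SE 0.28, adjusted p = 0.85 in limma). The last value lies at the control's level, which goes against that label for mRNA, and the values used here do not cover protein. Each direction below for the pair rests in part on that library. All 8 macrophage markers examined were present, with summed levels of 452943, 343534 and 366168. Summed markers of fibroblasts, neutrophils and mast cells, lymphocytes and epithelium stayed between 0 and 40.4 in every library. Of 7 dendritic cell markers 2 had a mean of at least 10, their list summed to between 315 and 404, and Flt3, Batf3 and Dpp4 were listed at 0. The mitochondrial share of the total was 1.43%, 0.995% and 1.14%. Longer transcripts tended to lie higher against the control in each of the other libraries, and GC-rich ones lower. Across 13862 features, which are not independent replicates, Spearman values were 0.18 and 0.17 with exonic length and -0.20 and -0.15 with GC content. Across the 30 members they were 0.33 and 0.28 with length and -0.14 and -0.20 with GC content. The part of these shifts in the members' values was not tested, except that the members' counts, the medians by role and the differences of the members and of the 5 partners named by rule were also computed with the length and GC trend removed.

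Most members lay close to the control. In bulk RNA a smaller share of expressing cells and less RNA per cell cannot be told apart. On the log2(normalized counts + 1) scale used for every difference here, which understates differences of low genes, 23 of 30 members were within 0.35 of the control for shRNA 1, against 67.4% of the 13877 features tested. For the library labelled shRNA 2 the count was 25, against 66.5%. Of the features tested 11424 had a mean of at least 50, as did every member except Sigirr. All features thus include more low genes, and no share matched for level was computed. No member passed an adjusted p of 0.05 in limma (0 of 30, with 0% of all features called). At an unadjusted p under 0.05 there were 2 of 30, Ikbkb and Birc3, both higher, against 6.94% of all features (4.52% higher and 2.42% lower), so the members' share is near that of all genes. Limma had 1 residual degree of freedom per gene, from 2 libraries with different shRNAs, and the single control was taken to have the same spread.

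By the size rule of at least 1.5-fold, for which there is no test, 3 of 30 members differed between the library labelled shRNA 1 and the control, where 16.7% of all features did. These were Sigirr and Traf1, higher (8.83% of all features), and Tab1, lower (7.85%). For the library labelled shRNA 2 the count was 2 of 30, Sigirr and Ticam2, both higher, against 17.2% of all features (9.99% higher and 7.19% lower). At least 2-fold were 1 member, Sigirr, for shRNA 1 and none (0) for that labelled shRNA 2, beside 6.92% and 7.32% of all features. Both libraries labelled GIV-depleted lay above the control in 15 of 30 members, where 34.9% of all features did so. They lay below it in 10 of 30 members, where 35.2% of all features did so. The remaining 5 were split, as were 29.9% of all features. After removal of the GC and length trend 13 members lay above the control in both libraries and 6 below. The median difference over the 30 members was 0.13, against -0.0015 over all features tested.

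**Figure D1:**
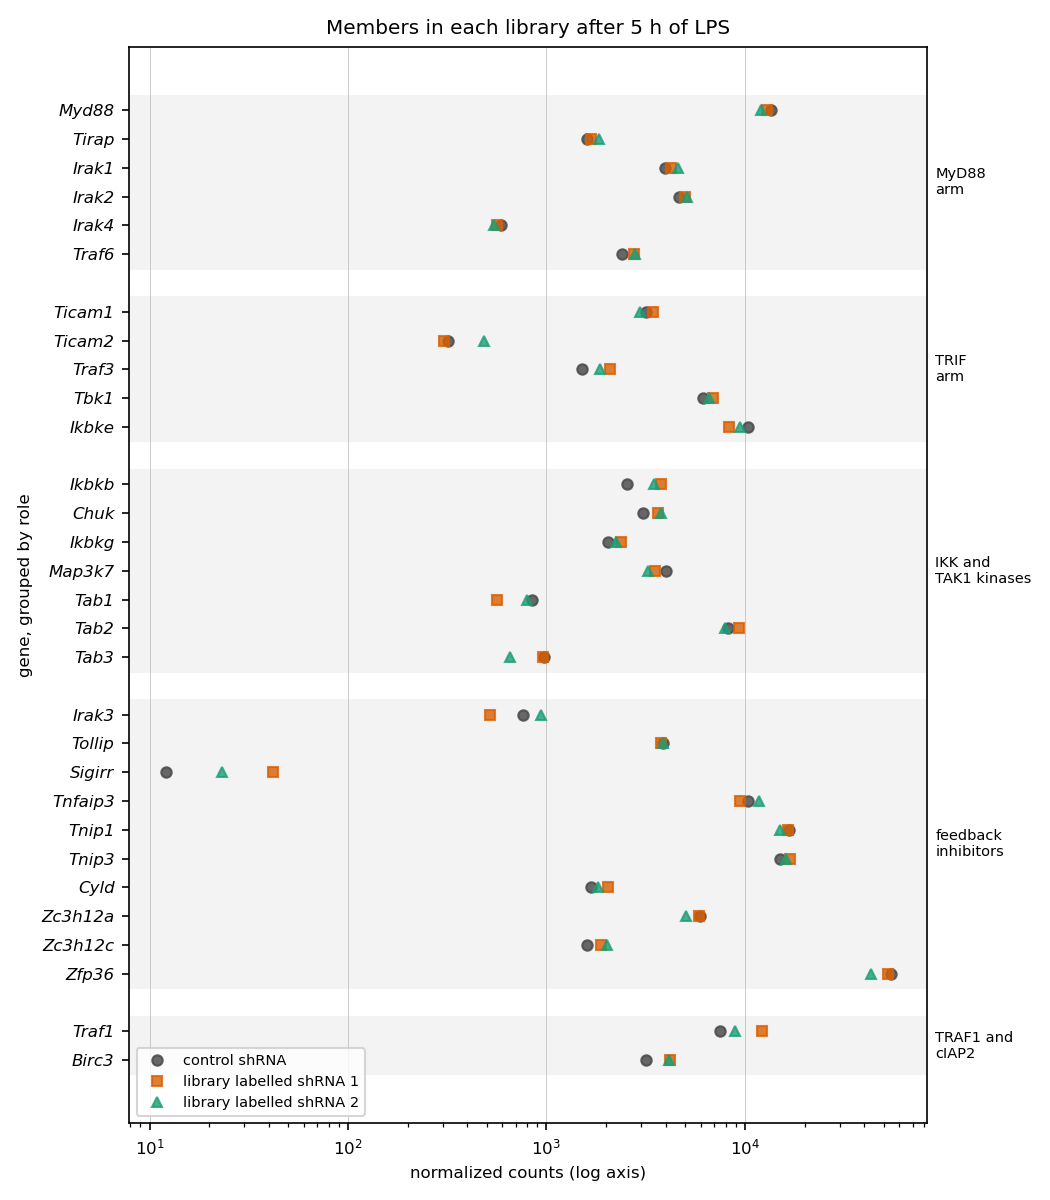
Normalized counts (log axis) of the 30 members, grouped by role, with 1 point for each of the 3 libraries. The points of most genes nearly coincide, and the levels run from 12.0 for Sigirr to 54625 for Zfp36 in the control.

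**Figure D2:**
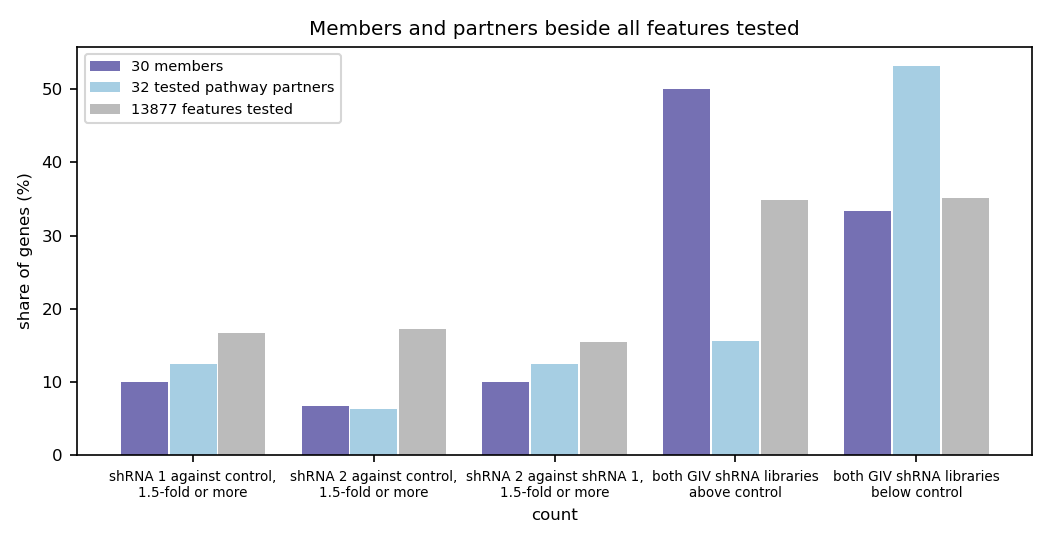
Share (%) of the 30 members, of 32 tested pathway partners and of the 13877 features tested that met each of 5 counts, as bars from 0. At 1.5-fold from the control the members' shares were 10% and 6.67%, against 16.7% and 17.2% of all features, and members lay above the control in both libraries in 50% of cases against 34.9%.

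In the MyD88 arm every difference of a single library lay between -0.16 and 0.22. Myd88, the adaptor itself (chromosome 9, 119335934 to 119341411, GRCm38), had 13555, 12978 and 12128 normalized counts. Both libraries labelled GIV-depleted were below the control, with a mean difference of -0.11 (SE 0.13). After removal of the GC and length trend the Myd88 difference was -0.03. Tirap, which brings MyD88 to the membrane, had 1608, 1682 and 1851, with the control lowest. Irak4, the kinase that starts the cascade, had 588, 562 and 546, again with the control highest. Irak1, its substrate kinase, had 3966, 4243 and 4604, and here the control was lowest. Irak2, the kinase that sustains later signalling, had 4645, 5016 and 5130. Traf6, the ubiquitin ligase that carries the signal to TAK1, had 2394, 2758 and 2780, and the 2 libraries labelled GIV-depleted differed by only 0.01. Its mean difference of 0.21 (SE 0.13) had an adjusted p of 0.80 in limma. Over the arm 4 members were above the control in both libraries and 2 below, with a median of 0.13 (0.08 in the library labelled shRNA 1 alone and 0.17 in that labelled shRNA 2 alone). No member of the arm passed the test, at adjusted p values between 0.80 and 0.94 in limma.

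In the TRIF arm the members spread further, with 2 above the control in both libraries, 1 below and 2 split, and none passed the test. Traf3, a ubiquitin ligase needed for TBK1 activation (chromosome 12, 111166370 to 111267153), had 1506, 2102 and 1867 normalized counts. The control was the lowest of the 3, and the mean difference was 0.40 (SE 0.16), with an unadjusted p of 0.067 and an adjusted p of 0.73 in limma. Tbk1, the kinase that phosphorylates IRF3, had 6148, 6890 and 6573, close to each other. Its relative IKK-epsilon (Ikbke, chromosome 1, 131254343 to 131279606) had 10421, 8296 and 9468, and the control was highest. The mean difference of Ikbke was -0.23 (SE 0.14, adjusted p = 0.80 in limma). Ticam1, which encodes TRIF, had 3191, 3435 and 2946, so that the control lay between the others, and its mean difference of -0.0045 turned positive with equal library totals.

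Ticam2, the TRAM adaptor, separated the 2 libraries labelled GIV-depleted. It had 318.5, 303.5 and 483 normalized counts, high only in the library labelled shRNA 2. The last is 1.52-fold the control, and its difference of 0.60 lies just past the 1.5-fold limit. In the annotation 838 bp of the Ticam2 exons, 14.5% of them, are shared on the same strand with the neighbouring gene Tmed7, so the split of reads between these genes is uncertain. Tmed7, a gene of vesicle traffic, had 8118, 8448 and 9111 normalized counts, also highest in the library labelled shRNA 2.

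Among the IKK and TAK1 kinases the 3 IKK subunits lay above the control in both libraries, whereas the kinase TAK1 lay below. Of all features 34.9% lay above in both and 35.2% below. Ikbkb, the catalytic subunit IKK-beta that phosphorylates IkB proteins (chromosome 8, 22659212 to 22706589, minus strand), had 2533, 3786 and 3471 normalized counts. The control was lowest, and the other libraries had 1.495-fold and 1.37-fold its value. The mean difference was 0.52 (SE 0.14), with an unadjusted p of 0.020 and an adjusted p of 0.63 in limma. This was the lowest p among the members. After removal of the GC and length trend the Ikbkb difference was 0.39 (adjusted p = 0.74 in limma, and between 0.39 and 0.74 over the alternatives).

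Chuk, the partner kinase IKK-alpha (chromosome 19, 44073335 to 44107480), had 3057, 3633 and 3794, with the control lowest. Its mean difference of 0.28 (SE 0.13) had an adjusted p of 0.74 in limma. Ikbkg, the regulatory subunit NEMO, had 2044, 2372 and 2244, with the control again lowest and a mean difference of 0.17 (SE 0.14). In the other direction, Map3k7, which encodes TAK1 (chromosome 4, 31964097 to 32023467), had 4013, 3510 and 3263. Its mean difference was -0.25 (SE 0.13, adjusted p = 0.77 in limma). After removal of the GC and length trend the differences were 0.21 for Chuk, 0.08 for Ikbkg and -0.31 for Map3k7. None of the 4 reached 1.5-fold in either library by the rule, Ikbkb lying just inside it at 0.58 in the library labelled shRNA 1.

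The TAK1-binding proteins differed from library to library. Tab1, an activating subunit (chromosome 15, 80133127 to 80161707), had 849, 560 and 802 normalized counts and was low only in the library labelled shRNA 1. Tab3, a subunit that binds ubiquitin chains (chromosome X, 85574022 to 85634469), had 974, 957 and 653 and was low only in the library labelled shRNA 2. Tab2, the related ubiquitin-binding subunit, had 8243, 9298 and 7972, and the control lay between the others. For Tab1 the distance between the libraries labelled GIV-depleted was 0.52, more than its mean difference of -0.34 (SE 0.28) from the control. The median of the 7 genes was 0.06, against 0.17 in the library labelled shRNA 1 alone and -0.05 in the library labelled shRNA 2 alone.

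**Figure D3:**
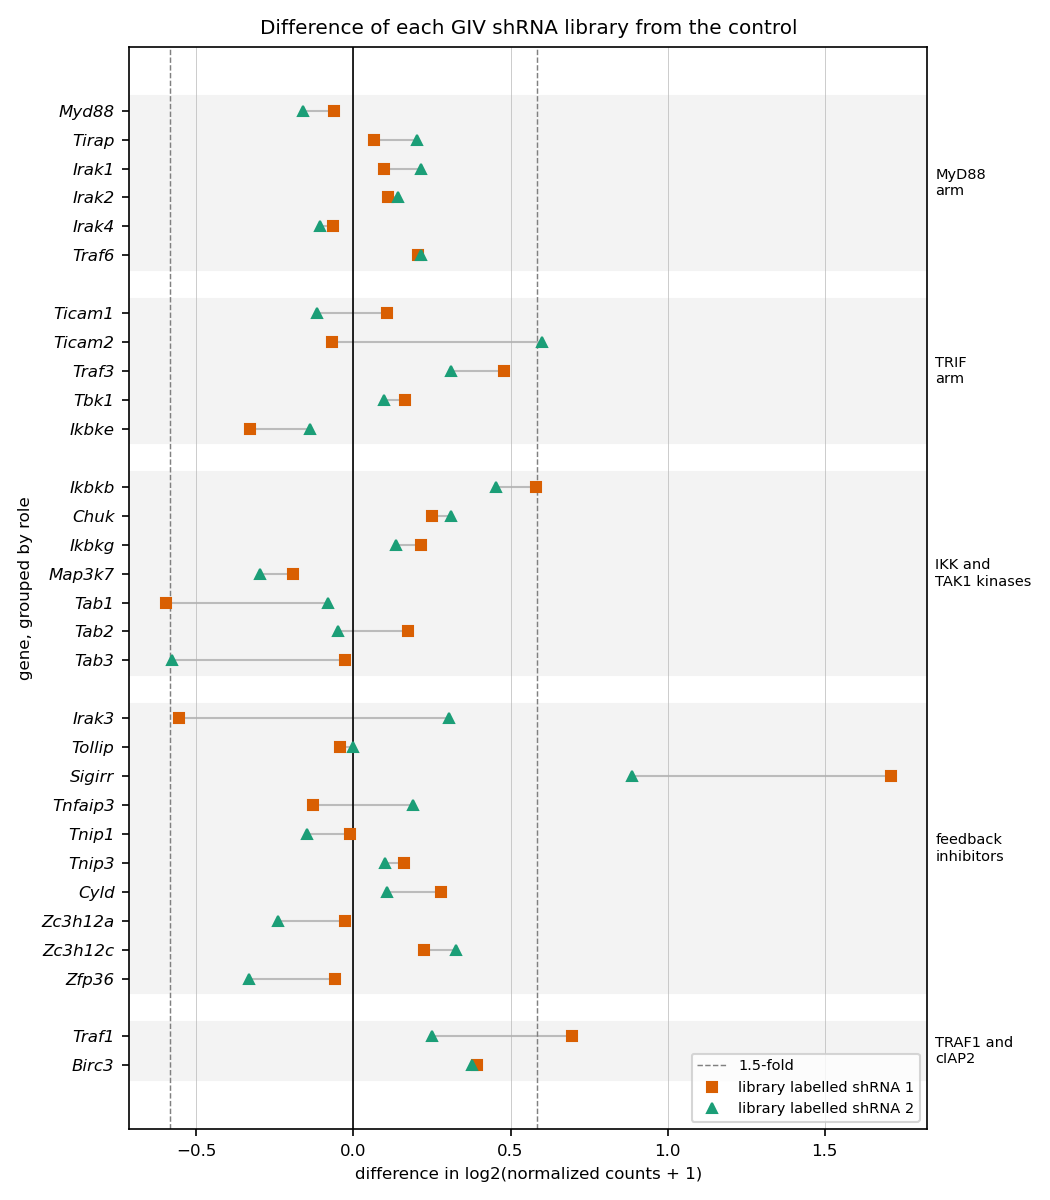
Difference of each library labelled GIV-depleted from the control in log2(normalized counts + 1), by gene and role, with a grey line joining the 2 libraries and dashed lines at 1.5-fold. Ikbkb, Chuk, Traf3, Traf1 and Birc3 lie to the right in both libraries, while Irak3 and Ticam2 lie on opposite sides of 0.

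The feedback inhibitors had no shared direction, with 4 of 10 above the control in both libraries, 4 below and 2 split, and a median of 0.0049. The A20 complex was among the most abundant of the members. Tnfaip3, which encodes A20, an enzyme that edits ubiquitin chains on TRAF6 and RIPK1, had 10334, 9455 and 11788 normalized counts. The control lay between the others, and the mean difference was 0.03 (SE 0.18, adjusted p = 0.98 in limma). Tnip1, the A20-binding inhibitor ABIN-1, had 16687, 16575 and 15065. Tnip3, the related ABIN-3, had 15021, 16788 and 16088. Cyld, another deubiquitinase of the pathway, had 1684, 2042 and 1815. Differences of these 4 genes in single libraries stayed between -0.15 and 0.28.

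Promoters of 3 of these inhibitors and of Traf3 are printed because they hold matches to the motif of NF-kB, so they were picked by the motif. The list of 30 members did not use the motif. The inhibitors, however, include genes that NF-kB is known to drive, such as Tnfaip3, so their share below is not independent of the list. Promoter windows from RefSeq (GRCm38.p6, 250 bases before to 50 after a start) were found for 26 of the 30 members, all except Ticam2, Ikbkb, Tab1 and Sigirr. They were searched on both strands for 2 forms of the kappaB motif that can overlap each other, GGG, any 3 bases and TTCC, or GGG, any 3 bases and TCCC. At least 1 form was present for 9 of the 26 members, against 11.7% of 27025 genes with a window. A gene with several windows has more chances of a match, and this was not corrected for. By role these were 4 of 9 inhibitors (Tnfaip3, Tnip1, Tnip3 and Cyld), 2 of 6 in the MyD88 arm (Tirap and Irak1), 1 of 4 in the TRIF arm (Traf3), 2 of 5 kinase genes (Chuk and Map3k7) and 0 of 2 for Traf1 and Birc3. The first form alone was in 5.56% and the second in 5.55% of all 32851 windows. Where a gene had several windows with a match, that with the most matches was taken for printing. Below are the 150 bases before the start used for 4 of these genes, in the gene's own direction, with matches in capitals.
Tnfaip3: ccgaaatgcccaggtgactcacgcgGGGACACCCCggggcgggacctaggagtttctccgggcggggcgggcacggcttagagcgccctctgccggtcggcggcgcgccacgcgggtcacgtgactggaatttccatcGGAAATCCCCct
Tnip1: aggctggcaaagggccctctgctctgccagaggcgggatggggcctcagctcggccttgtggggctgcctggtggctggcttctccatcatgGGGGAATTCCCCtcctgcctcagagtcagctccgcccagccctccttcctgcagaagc
Tnip3: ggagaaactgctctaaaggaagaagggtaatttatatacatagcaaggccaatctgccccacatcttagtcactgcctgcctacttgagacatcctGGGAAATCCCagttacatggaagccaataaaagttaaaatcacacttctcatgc
Traf3: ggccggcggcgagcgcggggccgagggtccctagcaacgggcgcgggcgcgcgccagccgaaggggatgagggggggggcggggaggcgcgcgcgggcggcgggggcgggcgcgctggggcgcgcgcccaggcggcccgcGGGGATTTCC

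These windows lie at chr10:19015411-19015560 (minus strand), chr11:54962941-54963090 (minus strand), chr6:65590248-65590397 (plus strand) and chr12:111166220-111166369 (plus strand). The Tnip3 window lies inside the annotated gene (65525313 to 65634040), and so does the Tnfaip3 window (gene at 19000910 to 19015657). For both genes the start used is thus not the first annotated start, and the printed bases are not upstream of the whole gene. In Tnip1 3 overlapping matches merge into 1 run of capitals ending at position -47. The Traf3 match ends at the base before the start. Tnfaip3 also holds TGACTCA, a match to the AP-1 motif TGANTCA, beginning at position -136 counted from the start used. That motif was in 7.81% of all windows. A match is a description of the letters only. Over the 9 members with a match the mean differences ranged from -0.25 for Map3k7 to 0.40 for Traf3, while Birc3 and Traf1, which lay above the control in both libraries, had no match in their windows.

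Of the inhibitors that act on the receptor complex, Irak3 and Sigirr differed between the libraries by at least 1.5-fold and Tollip did not. Irak3, which encodes IRAK-M, a catalytically weak IRAK that blocks the complex (chromosome 10, 120141648 to 120202130), had 764, 520 and 943 normalized counts. The control lay between them, and the 2 libraries labelled GIV-depleted were 1.81-fold apart. The mean difference of -0.13 (SE 0.41) had an adjusted p of 0.96 in limma. Tollip, an adaptor that restrains IRAK1, had 3885, 3774 and 3883, the most even triplet of the inhibitors by the distance between its extremes. Sigirr, a receptor-like inhibitor (chromosome 7, 141091175 to 141100572), had 12.0, 41.7 and 23.1, which is roughly 13, 38 and 24 reads. Its mean difference of 1.30 (SE 0.59), the largest among the members, thus rests on few reads and had an adjusted p of 0.74 in limma.

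The other 3 inhibitors act on mRNA. Zfp36, which encodes tristetraprolin, a protein that binds AU-rich elements and speeds decay of cytokine mRNAs (chromosome 7, 28376784 to 28380253), had 54625, 52403 and 43407 normalized counts. The control and the library labelled shRNA 1 were close, and the library labelled shRNA 2 was lower, at 0.795 of the control. Zc3h12a, which encodes the endonuclease Regnase-1, had 5972, 5858 and 5054, with the same order of libraries. The mean differences were -0.20 (SE 0.18) for Zfp36 and -0.13 (SE 0.15) for Zc3h12a, with adjusted p values of 0.84 and 0.87 in limma. Zc3h12c, a relative of Regnase-1, went the other way, with 1603, 1875 and 2011. Its mean difference was 0.28 (SE 0.15, adjusted p = 0.76 in limma). After removal of the GC and length trend the differences were -0.12 for Zfp36, -0.0057 for Zc3h12a and 0.18 for Zc3h12c.

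Traf1 and Birc3, a pair of genes that NF-kB is known to induce and whose products bind TRAF2, were above the control in both libraries. Of all features 34.9% were so placed. Birc3, the ubiquitin ligase cIAP2 (chromosome 9, 7848699 to 7873186), had 3184, 4178 and 4134 normalized counts. The libraries labelled GIV-depleted were almost equal, 0.02 apart, and the mean difference was 0.38 (SE 0.13). It had an unadjusted p of 0.037 and an adjusted p of 0.69 in limma. Traf1 (chromosome 2, 34941750 to 34961772) had 7505, 12157 and 8931, so the library labelled shRNA 1 stood highest, at 1.62-fold the control against 1.19-fold. Its mean difference was 0.47 (SE 0.23, adjusted p = 0.75 in limma).

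Between the 2 libraries labelled GIV-depleted, a comparison that does not use the control and has no test, 3 of 30 members differed by at least 1.5-fold, against 15.5% of all features (8.96% higher and 6.54% lower), and 0 by 2-fold, against 6.23%. Irak3 and Ticam2 were higher in the library labelled shRNA 2 (differences of 0.86 and 0.67) and Sigirr was lower (-0.82). Next in size were Tab3 at -0.55 and Tab1 at 0.52, inside the limit. The highest control value among these 5 genes was 974, for Tab3. The median absolute difference of the 30 members was 0.14, against 0.20 for all features tested. The 7 members with the highest control values, from Tab2 at 8243 to Zfp36, were at most 0.32 apart between these libraries. Traf1, the next below them at 7505 in the control, differed more, by -0.44, so larger differences were not confined to low genes.

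Ratios of 2 members within a library do not depend on how a library was scaled, and 19 were taken, chosen after the values were seen. A balance here is a ratio of normalized counts with no correction for gene length. Only its change between libraries can be read, not which of the 2 genes has more transcripts. The balance of Ikbkb (IKK-beta) over Map3k7 (TAK1) was 0.631, 1.08 and 1.06, where the control had 133 and 625 counts per kb of annotated exons. It was thus 1.71-fold and 1.69-fold the control's, and the 2 libraries labelled GIV-depleted nearly coincided. For IKK-alpha (Chuk over Map3k7) the ratio was 0.762, 1.03 and 1.16. The 2 catalytic IKK subunits differed less from each other, Ikbkb over Chuk being 0.829, 1.04 and 0.915. Tbk1 over Ikbke was 0.590, 0.831 and 0.694, lowest in the control.

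Of the other balances, 3 differed little between libraries. Irak2 over Irak1 was 1.17, 1.18 and 1.11, Ticam1 over Myd88, the ratio of the 2 signalling adaptors, was 0.235, 0.265 and 0.243, and Zfp36 over Zc3h12a was 9.15, 8.95 and 8.59. Ticam2 over Ticam1, the ratio of the TRIF arm's adaptors, was 0.0998, 0.0884 and 0.164, highest in the library labelled shRNA 2. Tab2 over Tab1 stood apart only in the library labelled shRNA 1, with 9.71, 16.6 and 9.94. Irak3 over Irak4, the balance of the inhibitory to the initiating kinase, was 1.30, 0.925 and 1.73, with the control between the others. All ratios to 1 gene share that gene's error, and with 1 library each they have no test.

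**Figure D4:**
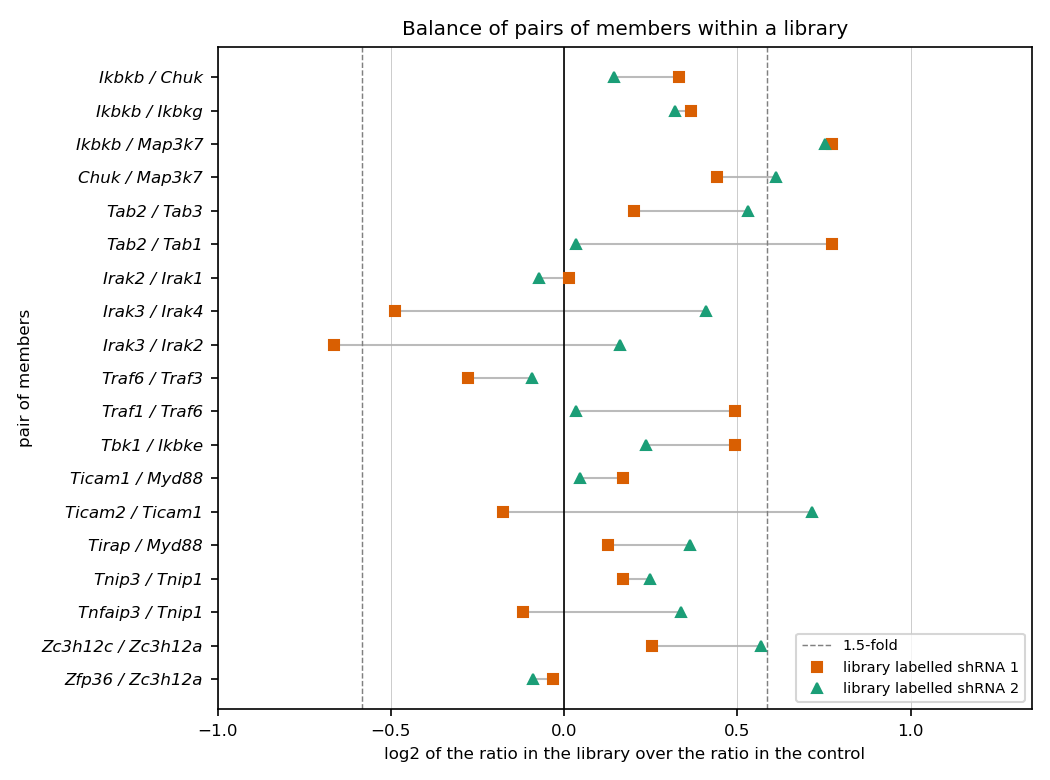
Log2 of the ratio of 2 members' normalized counts in each library labelled GIV-depleted over the same ratio in the control, for 19 pairs, with dashed lines at 1.5-fold. Ikbkb over Map3k7 lies past 1.5-fold in both libraries (0.77 and 0.75), whereas Irak2 over Irak1 and Zfp36 over Zc3h12a lie near 0.

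Levels between genes were compared as normalized counts per kb of annotated exons. Zfp36 was highest in the control, at 15742 per kb, followed by Myd88 at 5262, Tnip1 at 4715, Zc3h12a at 2072 and Tbk1 at 1572. These 5 held ranks 1 to 5 in each library by this length, whereas per kb of the longest transcript the first 5 in the control were Zfp36, Tnip1, Myd88, Tnip3 and Traf1. At the low end were Irak4 at 117 per kb, Ticam2 at 55.0 and Sigirr at 3.96. Tnfaip3 at 1430, Tnip3 at 1376 and Tab2 at 1344 were next to each other in the control. Their order was the same in the library labelled shRNA 2, whereas in that labelled shRNA 1 Tnfaip3 came below the others. The largest shift in rank against the control was 4 places, for Ikbkb, Tab1, Irak3 and Traf1 in the library labelled shRNA 1 and for Tab1 in the library labelled shRNA 2. The exon length matters for Ikbkb, whose annotated exons span 19078 bp while its longest transcript has 4845 bp. By that transcript Ikbkb was at 523 per kb rather than 133 in the control. Traf1 by its own longest transcript was at 2184 rather than 851, and Tnip3 at 3246 rather than 1376.

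**Figure D5:**
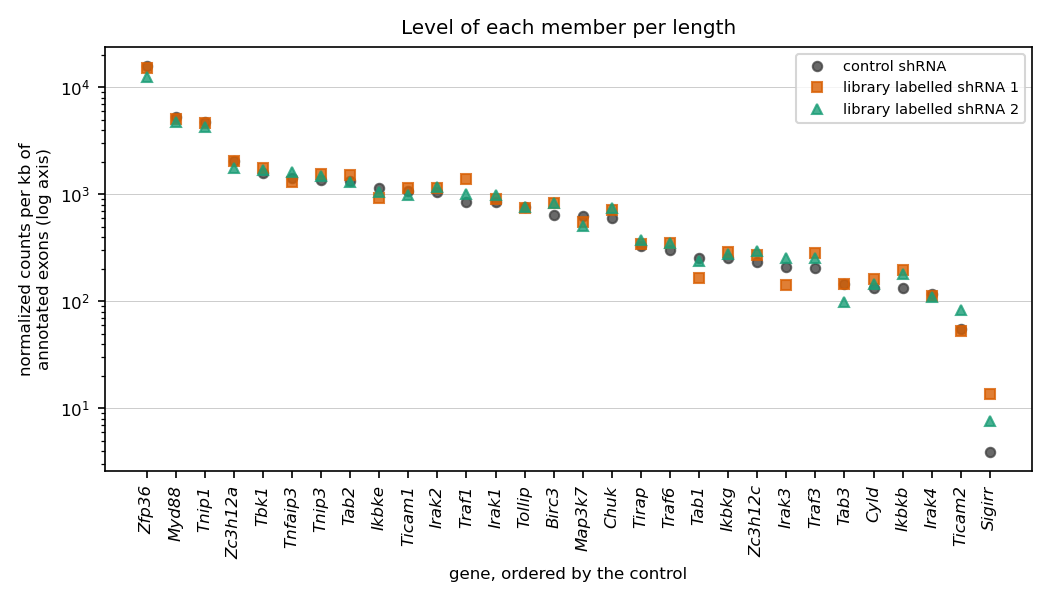
Normalized counts per kb of annotated exons (log axis) for the 30 members, ordered by the control, with 1 point per library. Zfp36 is highest in every library and Sigirr lowest, and Tab1, Tab3, Irak3, Ticam2 and Sigirr show visible spread between libraries.

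Genes that work beside the members were examined as a list of 35 pathway partners, of which 32 passed the filter. No partner passed an adjusted p of 0.05 in limma, and 2 of 32 had an unadjusted p under 0.05 (Zfp36l1 higher and Zfp36l2 lower), against 6.94% of all features. Both libraries labelled GIV-depleted lay above the control in 5 of 32 and below in 17 of 32, against 34.9% and 35.2% of all features, with a median of -0.07 (-0.05 for shRNA 1 alone and -0.17 for the library labelled shRNA 2 alone). The partner with the largest difference was Zfp36l1, a relative of tristetraprolin, with 289.5, 621 and 952 normalized counts. Its mean difference was 1.41 (SE 0.33, adjusted p = 0.53 in limma). Rnf31, the catalytic subunit HOIP of the linear ubiquitin ligase, had 2953, 1973 and 2384, a mean difference of -0.44 (SE 0.18). Map3k14, the kinase NIK of the noncanonical NF-kB pathway, had 909, 548 and 823 and was low mainly in the library labelled shRNA 1. Tifa, an adaptor of TRAF6, had 1303, 854 and 1099. Sarm1, a TIR-domain protein, had 16.1, 5.49 and 9.25, which is roughly 17, 5 and 10 reads.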

How the data were processed

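Stranded mRNA libraries were made from 3 samples, per the labels' protocols, whose spelling of the line's name is used where the source label differs. The deposited table gives 1 value per gene and library. The authors deposited normalized counts, here a non-negative signal whose scaling method the sources used here do not give. The submitters' processing notes name Salmon, DESeq, DESeq2 and GRCm38 with no version or role. No strand setting for counting is stated, so reads of overlapping genes may be shared.

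Identifiers were matched without version to GENCODE M21 (54097 of 54331 had a symbol). The 13877 features with a mean of at least 10 were tested on the log2(value + 1) scale with limma 3.58.1 in R 4.3.3. The test was two-sided and moderated with a mean-variance trend, with Benjamini-Hochberg adjustment over all features tested. The fit was also run on simulated libraries with equal noise in each, which cannot check the spread of the single control. The submitters call the 2 libraries labelled GIV-depleted biological replicates, with a different shRNA in each, and separate cultures are not described. Each p-value and SE rests on how far these libraries differ, moderated by the spread of other genes. Neither measures a spread between cultures with the same shRNA. Depth was roughly 44700000 to 52700000 reads per library, estimated from the commonest low value. Members and lists were chosen with earlier results of these data known. By rule, all 30 members, Ccdc88a and the 5 tested partners with the largest absolute mean difference were named. Other genes were named after their values were seen. Alternatives covered the pseudocount, the filter, scaling, a GC and length trend, the variance trend, the fold rule, exon length and leaving out a library. Coordinates are from GENCODE M21.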

Additional observations from a re-analysis of the deposited data

How the results depend on the processing

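No member passed an adjusted p of 0.05 in limma under any of the 9 alternatives fitted on all 3 libraries, the lowest being 0.30 for Birc3 without a filter on low values, and no pathway partner passed either. Of the 30 members, 26 kept the sign of their difference in each of these where they were fitted, Sigirr being left out at a mean of at least 50. The exceptions, all small, were Ticam1, positive with equal totals (0.0118) and after removal of the GC and length trend (0.112), and, after that removal, Tnfaip3 (-0.0291), Tnip1 (0.0492) and Tnip3 (-0.0301). Removing that trend also left 6 members below the control in both libraries instead of 10. Without the variance trend 0 members had an unadjusted p under 0.05 instead of 2. At 2-fold, 1 member differed from the control for shRNA 1, 0 for shRNA 2 and 0 between them, and at a mean of at least 50, where Sigirr is not tested, 1 reached 1.5-fold for shRNA 2. The TRIF arm median was 0.13, and 0.15 with equal totals, 0.12 after quantile normalization and 0.11 after removal of that trend. The median level per kb of exons in the control was 630 over the members and 949 per kb of the longest transcript. The cause of these shifts was not tested.

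With 1 library labelled GIV-depleted left out, 1 library is set against 1 and there is no test. The median then ranged from 0.10 to 0.11 for the TRIF arm and from -0.0187 to 0.10 for the feedback inhibitors. The difference ranged from -0.12 to 0.11 for Ticam1, from -0.0695 to 0.60 for Ticam2, from -0.0483 to 0.17 for Tab2, from -0.55 to 0.30 for Irak3 and from -0.13 to 0.19 for Tnfaip3. No paired analysis was possible because there was 1 control library, so the groups share fewer than 2 replicate numbers. Few reads limit Sigirr and Sarm1, and the single control limits every comparison.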

Other observations

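Among the pathway partners, 3 further sets were described after their values were seen, each in the order control, library labelled shRNA 1, library labelled shRNA 2. The linear ubiquitin ligase, which builds chains that NEMO binds, is made of HOIP (Rnf31), HOIL-1 (Rbck1) and SHARPIN. Rbck1 had 4754, 3782 and 3901 normalized counts, and its mean difference of -0.31 (SE 0.13) had an adjusted p of 0.73 in limma. Sharpin had 1316, 1224 and 1260, with a mean difference of -0.08 (SE 0.15). The control was thus highest for all 3 subunits, as it was for 35.2% of all features. Otulin, the enzyme that cuts these chains, had 1669, 1727 and 1868, with a mean difference of 0.11 (SE 0.15). The partners of A20 in ubiquitin editing had 7191, 7389 and 7301 for Tax1bp1, 3971, 4375 and 3948 for Itch, and 3266, 3854 and 3506 for Rnf11, whereas Tnip2, which encodes ABIN-2, had 2345, 1626 and 1878.

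The tristetraprolin relatives differed in opposite directions, with Zfp36l2 at 3005, 2362 and 2130 beside the higher values of Zfp36l1. Zfp36l2 had an unadjusted p of 0.045 and an adjusted p of 0.71 in limma. Zc3h12d, a Regnase relative, had 638, 463 and 509, with the control highest, whereas it was lowest for Zc3h12c. Ripk1, the kinase that TRIF and A20 both engage, had 2933, 2939 and 2932, less than 0.01 apart in any pair of libraries.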
